A study of Homo sapiens with 12 samples.

Results

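The regions described here are the NONO peaks that the authors placed deep inside introns of protein-coding genes, more than 500 nt from a splice site by the name of their annotation class. All peaks of that class in the 6 deposited peak lists were taken, which gave 15337 of 26351 peaks in 905 genes. The peaks come from eCLIP of NONO in 22Rv1, an established human prostate cancer cell line. In eCLIP, ultraviolet light links a protein to the RNA it touches, the protein is immunoprecipitated, and the attached RNA fragments are sequenced and set against an input library of the same cells. The groups were cells given 20 µM SKBG-1(R), cells given 20 µM SKBG-1(S), the other stereoisomer, and cells given the vehicle alone. Every group received 0.04% DMSO for 4 h, and each had 2 replicates with 1 peak list each. Nothing in the labels tells whether the replicates were grown apart, and the p-values may therefore reflect technical spread alone.

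NONO is a nuclear protein of the DBHS family that binds RNA and DNA, takes part in transcription and splicing, and is a core protein of paraspeckles. Introns are transcribed with the rest of the gene and cut out in the nucleus, so a contact in an intron is a contact with unspliced RNA or with an excised intron. The deep part of an intron lies away from the splice sites where spliceosomal components assemble, and in long first introns it can still be close to the start of the transcript.

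Of the 38 merged regions that held a deep intronic peak in every list, 5 were given reference sequence. It came from an annotated noncoding exon or from upstream of a RefSeq transcript start, and the other regions are not shown to lack such sequence. Of the 5, 4 are printed: those with a stretch that peaks of all 6 lists cover. In the remaining one, GLTSCR1L, no stretch was covered by more than 4 lists. Bases are given 5′ to 3′ on the strand of the bound transcript as DNA letters, and capitals mark the stretch covered by peaks of all 6 lists. The GALNT7 stretch is chr4:173169508-173169794 (GRCh38, plus strand), 782 nt from the nearest upstream start of the gene by the middle of its peaks, and that of E2F3 is chr6:20403389-20403528 (plus strand). The FAM60A stretch is chr12:31324310-31324494 (minus strand) and overlaps the antisense noncoding gene FLJ13224, and that of TNRC18 is chr7:5420024-5420223 (minus strand), opposite an exon of the antisense noncoding gene AC092171.1. The first 3 were named by rank and TNRC18 because its sequence was at hand. Sequences were taken from GENCODE 29 transcripts and RefSeq promoter windows (GRCh38.p14).
GALNT7: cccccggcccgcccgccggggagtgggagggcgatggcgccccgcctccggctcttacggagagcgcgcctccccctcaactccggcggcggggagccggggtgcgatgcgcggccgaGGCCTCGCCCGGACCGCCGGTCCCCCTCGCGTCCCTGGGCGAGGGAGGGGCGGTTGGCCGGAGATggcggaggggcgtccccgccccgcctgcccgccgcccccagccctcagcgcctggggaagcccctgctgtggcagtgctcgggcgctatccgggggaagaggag
E2F3: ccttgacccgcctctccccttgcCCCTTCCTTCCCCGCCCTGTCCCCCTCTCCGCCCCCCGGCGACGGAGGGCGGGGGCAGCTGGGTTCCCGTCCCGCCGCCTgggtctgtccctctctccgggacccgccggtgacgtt
FAM60A: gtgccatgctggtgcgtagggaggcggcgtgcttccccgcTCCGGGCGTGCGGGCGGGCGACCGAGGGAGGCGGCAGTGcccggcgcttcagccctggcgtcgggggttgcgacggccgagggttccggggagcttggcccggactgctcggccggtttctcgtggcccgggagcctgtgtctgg
TNRC18: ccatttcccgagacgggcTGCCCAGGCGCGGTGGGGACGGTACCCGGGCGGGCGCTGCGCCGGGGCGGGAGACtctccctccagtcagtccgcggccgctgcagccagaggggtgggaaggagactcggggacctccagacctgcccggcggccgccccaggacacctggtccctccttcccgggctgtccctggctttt
G and C made up 80% of the 65 capital bases of GALNT7, 80% of the 80 of E2F3, 82.1% of the 39 of FAM60A and 83.6% of the 55 of TNRC18. Their strands differed in which of the bases led: C was 51.2% of the E2F3 stretch, and G was 56.4% of that of FAM60A and 52.7% of that of TNRC18. The median G and C content of the 35116 RefSeq promoter windows of 300 bases was 58.7%. In GLTSCR1L, G and C made up 68.8% of the 48 bases covered by 4 lists, the lowest of the 5. All 5 have reference sequence because they lie near a start or opposite a noncoding exon, so their composition does not describe the other regions.

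The number of deep intronic peaks differed far more between the replicates of a group than between the groups. The SKBG-1(R) lists held 770 and 9616 for replicates 1 and 2, the SKBG-1(S) lists 463 and 2037, and the DMSO lists 244 and 2207. Replicate 2 exceeded replicate 1 by 12.5-fold with SKBG-1(R), 4.40-fold with SKBG-1(S) and 9.05-fold with DMSO, and SKBG-1(R) replicate 2 alone supplied 62.7% of all deep intronic peaks. The mean log2 number was 1.89 higher with SKBG-1(R) than with DMSO, 0.40 higher with SKBG-1(S) than with DMSO and 1.49 higher with SKBG-1(R) than with SKBG-1(S). None of these differences exceeded the spread between replicates (exact two-sided permutation p = 0.667, 1 and 0.667, where 2 lists against 2 cannot give less than 0.33). The test does not use the replicate numbers. Within each number SKBG-1(R) held more deep intronic peaks than SKBG-1(S) and DMSO, while SKBG-1(S) held more than DMSO in replicate 1 and fewer in replicate 2. Read totals were not given, so the depth of each library is unknown, and a gene without a peak is not shown to be unbound.

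Deep introns made up a larger share of the longer list in every group. They held 39.4% of SKBG-1(R) replicate 1 (95% Wilson interval 37.3 to 41.6) and 64.8% of replicate 2 (64.0 to 65.5). With SKBG-1(S) the shares were 37.4% (34.8 to 40.2) and 51.3% (49.8 to 52.9), and with DMSO 36.5% (32.9 to 40.2) and 60.0% (58.4 to 61.6). The intervals cover counting error only. Group means were 52.1% ± 17.9 with SKBG-1(R), 44.4% ± 9.84 with SKBG-1(S) and 48.2% ± 16.6 with DMSO (SD, n = 2 each). Differences of 3.86 points for SKBG-1(R) minus DMSO, −3.85 for SKBG-1(S) minus DMSO and 7.71 for SKBG-1(R) minus SKBG-1(S) all lay within that spread (exact permutation p = 0.667, 1 and 0.667). Within each list the class was commonest among the weakest peaks. With each list split into 4 equal parts by −log10 p, it held 72.6% of the lowest part of SKBG-1(R) replicate 2 and 51.2% of the highest, and 43.7% and 26.8% of those parts in DMSO replicate 1.

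**Figure D1:**
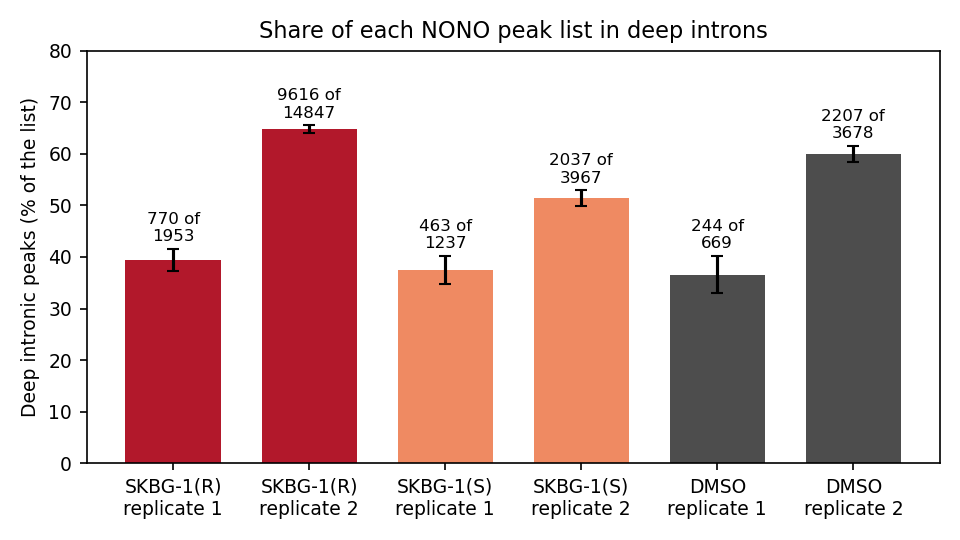
Deep intronic peaks as a percentage of all peaks of the list (y axis) for the 6 lists (x axis); bars are single lists, error bars are 95% Wilson intervals and the numbers above give deep intronic peaks of all peaks. The replicate 2 list stands above replicate 1 in each group, at 64.8, 51.3 and 60.0% against 39.4, 37.4 and 36.5%.

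Peaks deep in introns had about the enrichment over input of those near splice sites, and a lower −log10 p that did not pass adjustment. Their median log2 enrichment, the authors' value for each peak, was 3.75 and 3.77 in the SKBG-1(R) lists, 3.78 and 3.64 in the SKBG-1(S) lists and 3.69 and 3.59 in the DMSO lists. The difference from the 5778 peaks in proximal introns of coding genes averaged 0.0033 over the 6 lists and had no constant sign (exact sign-flip permutation p = 0.938). With lists held to the shortest length it was 0.10. Every deposited peak had a log2 enrichment of at least 3, so weaker peaks entered neither median. The median −log10 p was lower in deep introns in 6 of 6 lists, by 1.04 ± 0.44 on average (SD), with an exact permutation p of 0.031, the smallest that 6 lists can give, and an adjusted p of 0.0625 over the 4 measures compared. With lists held to the shortest length the direction turned, to 0.0683. It was 4.86 and 6.49 in deep introns against 5.82 and 8.02 in proximal introns in the SKBG-1(R) lists, and 4.43 and 5.02 against 4.79 and 6.26 in the DMSO lists. Median width was 58 to 75 nt, 2.58 nt less than in proximal introns on average (lower in 5 of 6 lists; exact sign-flip permutation p = 0.0625, adjusted 0.0833). The median distance to the gene start was 8054 to 19653 nt for deep intronic peaks and 727 to 2021 nt for proximal ones. The classes are defined by distance to a splice site and not to the gene start, and this difference is given as a description. A transcript start on the other strand lay within 1 kb of 4.37 to 9.61% of the deep intronic peaks of a list, against 15.7 to 22.7% of the proximal ones. That measure was added after the data were seen, and since the classes also differed in their distance to the gene start, it is a description too.

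Most deep intronic peaks lay in the first intron of an annotated transcript, which can begin inside the gene. In GSE1, 75% of the deep intronic peaks were placed in a first intron. The median distance of its peaks from the gene start was 446652 nt. Such first introns held 69.8 and 60.1% of all deep intronic peaks in the SKBG-1(R) lists, 65.3 and 61.7% in the SKBG-1(S) lists, and 61.1 and 63.7% in the DMSO lists. The median distance to the nearest upstream transcript start of the same gene was 3342 and 8180 nt with SKBG-1(R), 2665 and 5810 nt with SKBG-1(S), and 2911 and 6839 nt with DMSO. In each group the longer list thus reached further from starts. Peaks were also packed side by side: 16.8 to 29.9% of a list's deep intronic peaks abutted another one. After joining peaks within 50 nt, the longest stretch, in SLC7A5 in SKBG-1(R) replicate 2, ran over 1568 nt and may hold gaps. The class rests on the transcripts the authors used. In GENCODE 29, which holds further transcripts, 8.82 to 17.1% of the peaks of a list lay less than 500 nt from an exon edge.

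Merging overlapping peaks on the same strand gave 10586 regions, few of which were held by more than 1 list. One list alone held 8488 of them (80.2%), 6972 of these from SKBG-1(R) replicate 2. Further, 1357 were held by 2 lists, 496 by 3, 131 by 4, 76 by 5 and 38 by all 6. The 38 are 0.359% of the deep intronic regions, against 0.615% of merged regions of every class. A region held by more lists lay nearer to a start. The share within 2 kb downstream of a transcript start of its gene was 16.0% for regions of 1 list, 23.8% for 2 lists, 35.7% for 3, 44.3% for 4, 55.3% for 5 and 60.5% for 6. Without SKBG-1(R) replicate 2 the order was the same, with 21.4% for regions of 1 list and 64.1% for the 39 regions held by all 5 others. Of the peaks in a list, the share that overlapped a peak in the other list of its treatment was 4.40 to 53.1%, against 16.1 to 62.2% for lists of other treatments with the same replicate number and 2.18 to 64.1% for lists that shared neither. These shares move with the length of both lists.

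**Figure D2:**
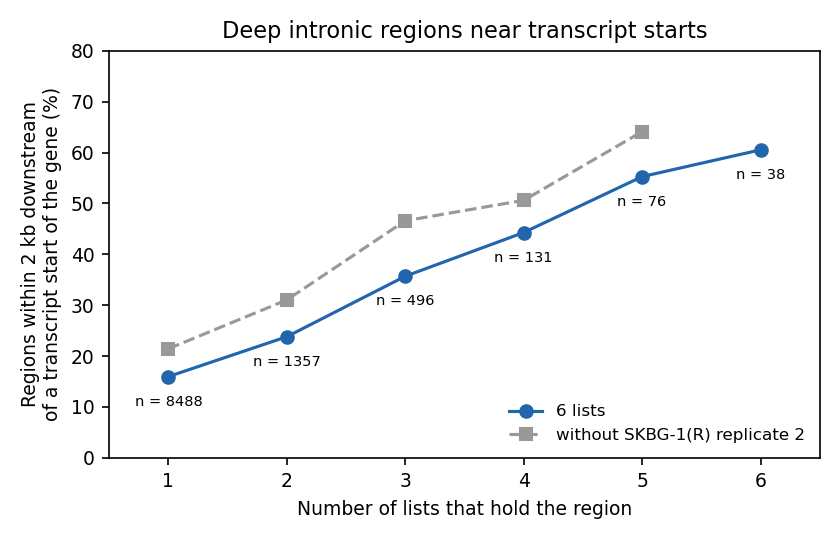
Percentage of deep intronic regions that lie within 2 kb downstream of a transcript start of their gene (y axis) by the number of lists that hold the region (x axis); circles are the 6 lists with n regions, and squares the 5 lists without SKBG-1(R) replicate 2. The share is 16.0% for regions of 1 list and 60.5% for the 38 regions of 6 lists.

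The 38 regions shared by every list lay in 28 genes. Of these regions, 26 were in the first intron of an annotated transcript, and at 28 a single point was covered by peaks of all 6 lists. SLC7A5, GALNT7 and BCOR held several of the 38. SLC7A5, which encodes a transporter of large neutral amino acids, held 5 of the 38, and GALNT7 and BCOR held 3 each. The region with the highest log2 enrichment in its weakest list was in the first intron of ANP32A, an acidic nuclear phosphoprotein, on chromosome 15 from 68818665 to 68818908. Its log2 enrichment was 5.08 and 5.54 in the SKBG-1(R) lists, 5.01 and 4.87 in the SKBG-1(S) lists, and 4.31 and 5.06 in the DMSO lists, so the groups overlapped.

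BCOR, a transcriptional corepressor, followed on chromosome X from 40092057 to 40092296, with 4.26 and 4.18 with SKBG-1(R), 4.31 and 4.64 with SKBG-1(S), and 4.13 and 4.25 with DMSO. In the GALNT7 region that holds the printed stretch the log2 enrichment was 4.70 and 4.64 with SKBG-1(R), 5.68 and 6.12 with SKBG-1(S), and 4.21 and 3.82 with DMSO. Here both SKBG-1(S) values stood above the other 4, and a second GALNT7 region, from 173169840 to 173169947, gave 4.47 and 3.95, 3.84 and 6.21, and 3.80 and 4.23 for the same groups, which overlapped. The E2F3 region, in the gene of a cell cycle transcription factor, had 3.73 and 4.80 with SKBG-1(R), 4.39 and 3.93 with SKBG-1(S), and 3.69 and 3.73 with DMSO. The remaining regions of the first 10 lay in SRPK2, a kinase of splicing factors, in SLC7A5, in the homeobox gene CUX1, in FAM60A, a subunit of a histone deacetylase complex, and in PLXNB2, a semaphorin receptor, with 3.62 in the weakest list of PLXNB2.

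GALNT7 encodes an enzyme that adds sugars to O-glycans, and all of its deep intronic peaks lay in its first intron, which runs over 79018 nt. It held 24 and 28 of them in the SKBG-1(R) lists, 7 and 23 in the SKBG-1(S) lists, and 7 and 15 in the DMSO lists. Of these, 16 and 24 lay within 2 kb of the gene start with SKBG-1(R), 6 and 15 with SKBG-1(S), and 5 and 8 with DMSO. None lay closer than 738 nt, since peaks nearer to the first splice site belong to the proximal class.

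**Figure D3:**
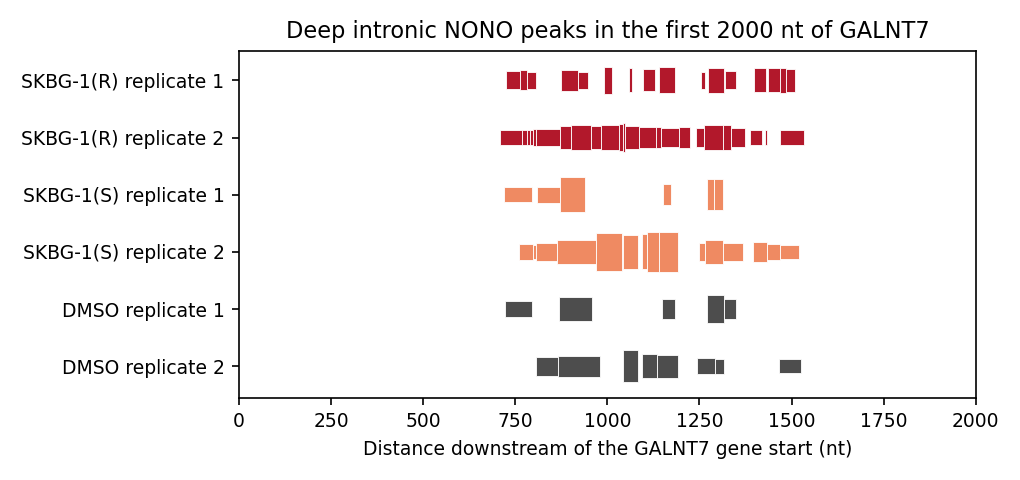
Deep intronic peaks of GALNT7 in the 6 lists (rows) by distance downstream of the gene start in nt (x axis); each bar spans a peak and its height grows with the authors' log2 enrichment. The middle of the nearest peak is at 738 nt, in SKBG-1(R) replicate 2, and the window holds 16, 24, 6, 15, 5 and 8 peaks from the top row down.

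Of 905 genes with a deep intronic peak, 54 had one in every list and held 29.2% of the peaks, while 375 had one in a single list, which was SKBG-1(R) replicate 2 for 241 of them. Without that list 664 genes remained, and 55 were in all 5 others. Genes in both lists of a group numbered 179 with SKBG-1(R), 149 with SKBG-1(S) and 81 with DMSO. The 10 genes with the highest mean share of the deep intronic peaks are given next, as peaks per list, and 9 of them stay among the first 10 without SKBG-1(R) replicate 2, where UNKL takes the place of GSE1.

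SLC7A5 (chromosome 16, 87830023 to 87869488) led, with 12 and 217 peaks in the SKBG-1(R) lists, 29 and 71 in the SKBG-1(S) lists, and 10 and 48 in the DMSO lists. Scaled to 10000 peaks of the list, that is 61.4 and 146, 234 and 179, and 149 and 131, so both SKBG-1(S) values were above the other 4. ANKRD11, a chromatin regulator on the same chromosome, had 50 and 224 with SKBG-1(R), 12 and 67 with SKBG-1(S), and 2 and 24 with DMSO. Its scaled values, 256 and 151, 97.0 and 169, and 29.9 and 65.3, put both DMSO lists below the 4 compound lists. CCND1, which encodes cyclin D1, had 44 and 127 with SKBG-1(R), 16 and 4 with SKBG-1(S), and 12 and 6 with DMSO, all of them beyond its first intron. Scaled, CCND1 gave 225 and 85.5, 129 and 10.1, and 179 and 16.3 for the same groups, which overlapped.

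IQSEC2, an exchange factor for ARF GTPases, gave 37 and 17 peaks under SKBG-1(R), 14 and 11 with SKBG-1(S), and 13 and 18 with DMSO, so that its scaled value was higher in replicate 1 in each group (189 against 11.5, 113 against 27.7, and 194 against 48.9). GSE1, a subunit of a histone demethylase complex, did the opposite, with 2 and 319 peaks, 4 and 37, and 1 and 73 for the same groups. NFIX, a nuclear factor I transcription factor, followed the longer lists too, with 5 and 99, 6 and 45, and 2 and 60. CUX1 had 19 and 53, 14 and 30, and 2 and 18, and TNRC18, a chromatin-associated protein, 11 and 22, 8 and 15, and 9 and 17. GALNT7 is described above, and AFF3, the fifth by share and a member of the AF4 group of nuclear proteins, is described below.

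**Figure D4:**
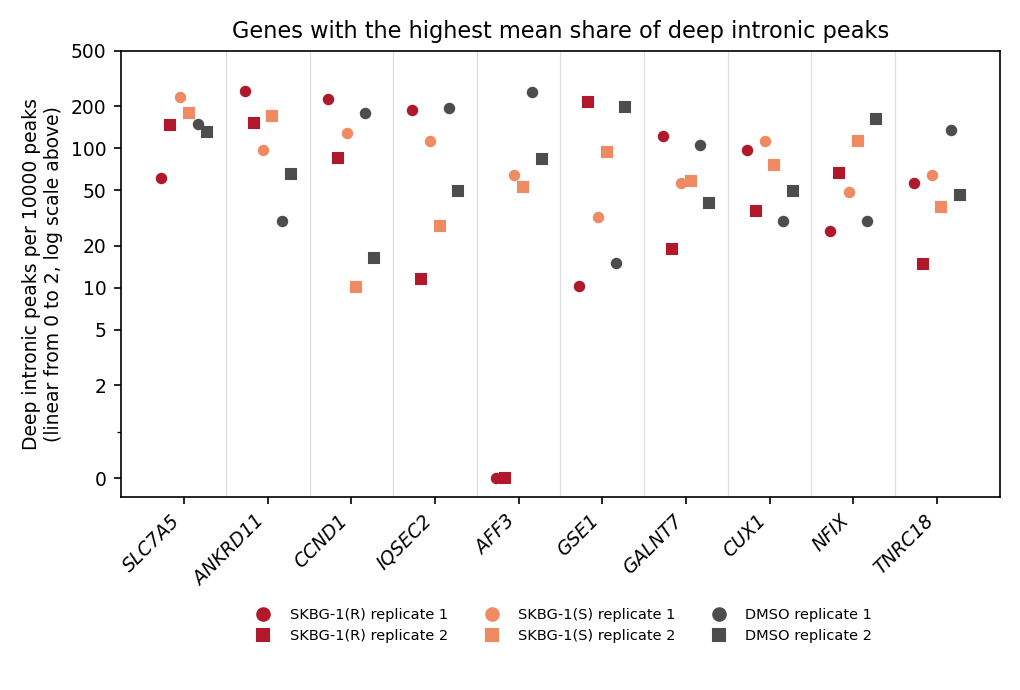
Deep intronic peaks per 10000 peaks of the list (y axis, linear from 0 to 2 and logarithmic above) for the 10 genes with the highest mean share (x axis); each point is 1 list, with replicate 1 as circles and replicate 2 as squares. IQSEC2 and CCND1 are higher in replicate 1 and GSE1 and NFIX in replicate 2 in every group, and both AFF3 points of SKBG-1(R) lie at 0.

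To compare treatments gene by gene, limma was run on log2 peaks per 10000 of the list, a prior count of 2 added, over the 532 combinations of gene and class with at least 10 peaks, of which 262 were deep intronic. The 10 peaks were summed over all 6 lists, so a feature with peaks mainly in 1 group could enter through that group. Against DMSO, SKBG-1(R) changed 1 of the 532 combinations at a Benjamini-Hochberg adjusted p under 0.05, and that 1 feature is 0.188% of all tested. Without adjustment 13 deep intronic features had a p under 0.05, among 14 of all features (2.63%). Of the deep intronic ones 7 were positive, where all features gave 1.5%, and 6 negative, where all features gave 1.13%. The median log2 difference of all features was 0.21 with this scaling, 0.47 with TMM scaling and 1.0 with none.

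AFF3 was the feature called. The SKBG-1(R) lists held 0 and 0 deep intronic AFF3 peaks, the SKBG-1(S) lists 8 and 21, and the DMSO lists 17 and 31. Per 10000 peaks this is 0 and 0, 64.7 and 52.9, and 254 and 84.3, so the 3 groups did not overlap. The fitted log2 difference of SKBG-1(R) minus DMSO was −5.06 (95% interval −7.22 to −2.89, limma adjusted p = 0.0314). It depends on the prior count, since 1 group is at 0, and it is no bound on the true difference. The call did not hold in 13 of 20 alternatives, among them TMM scaling (adjusted p = 0.310), a fit to the 4 lists compared (0.122) and leaving out DMSO replicate 1 (0.728), SKBG-1(R) replicate 1 (0.0987), SKBG-1(R) replicate 2 (0.826) or SKBG-1(S) replicate 1 (0.139). The log2 difference was negative in all 20, at −4.27 with TMM scaling, −5.32 with the 4 lists, −4.50 without DMSO replicate 1 and −1.92, the smallest, with lists held to the shortest length. The AFF3 peaks lay in introns after the first (chromosome 2, 99545419 to 100142739).

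SRRM4, an activator of neuronal exon splicing, had 0 and 0 deep intronic peaks with SKBG-1(R), 1 and 2 with SKBG-1(S), and 6 and 3 with DMSO. For the same groups SGCZ, a sarcoglycan, had 0 and 0, 1 and 1, and 1 and 8. PPP3CA, the catalytic subunit of calcineurin, had 4 and 2, 10 and 15, and 5 and 21. For these 3 genes SKBG-1(R) minus DMSO was −2.93, −2.31 and −2.52 on the log2 scale, none past the adjusted threshold (limma adjusted p = 0.987 for each). SRRM4 and SGCZ, with 12 and 11 peaks over all lists, reached the minimum of 10 through their DMSO peaks.

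In the other direction, ACTN4, an actin crosslinking protein, had 16 and 10 peaks with SKBG-1(R), 0 and 5 with SKBG-1(S), and 0 and 0 with DMSO. It reached the minimum of 10 peaks through SKBG-1(R), as did PLEKHA6 below. UNKL, a zinc finger gene, had 19 and 42, 19 and 17, and 0 and 6, so both compound groups lay above DMSO when scaled. TCF20, a transcriptional coregulator, had 10 and 90, 1 and 11, and 0 and 9, and PLEKHA6 had 3 and 22, 0 and 3, and 0 and 0. Together with ANKRD11 these are the 5 positive features with the smallest p, at log2 differences of SKBG-1(R) minus DMSO of 2.78 for ACTN4, 2.57 for UNKL, 2.39 for TCF20, 2.11 for PLEKHA6 and 2.04 for ANKRD11, and none passed adjustment (limma adjusted p = 0.987 for each).

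**Figure D5:**
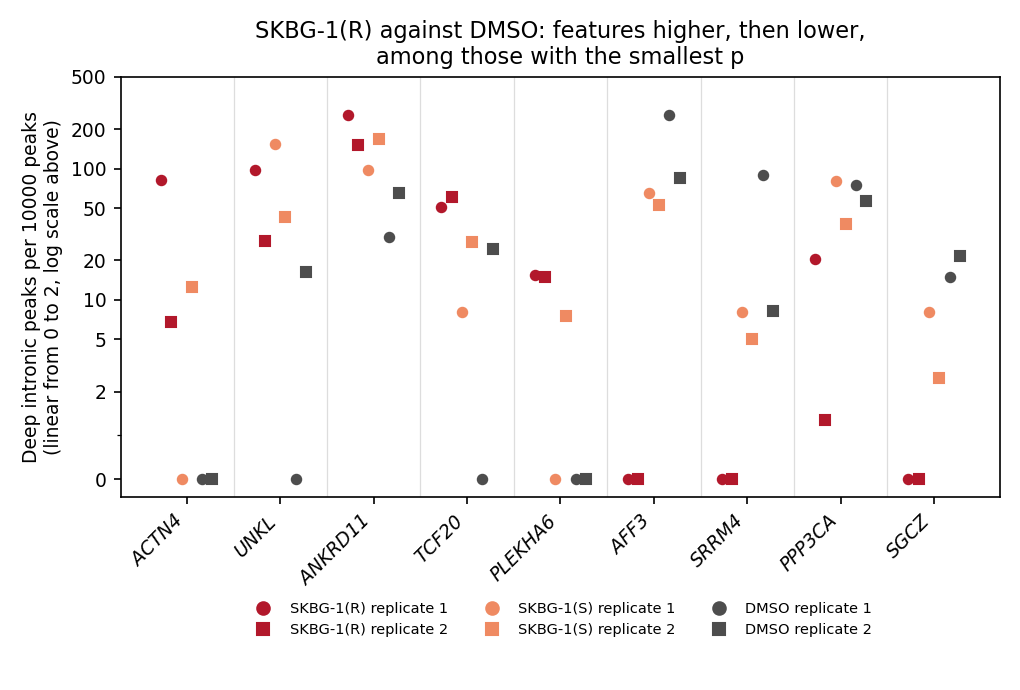
Deep intronic peaks per 10000 peaks of the list (y axis, linear from 0 to 2 and logarithmic above) for genes higher, then genes lower, in SKBG-1(R) than in DMSO, among those with the smallest p (x axis); each point is 1 list. AFF3, SRRM4 and SGCZ stand at 0 in both SKBG-1(R) lists, and ACTN4 and PLEKHA6 at 0 in both DMSO lists.

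SKBG-1(S) changed no deep intronic feature against DMSO by limma at an adjusted p under 0.05 (0% of all features). A single one, UNKL, had an unadjusted p under 0.05, among 3 of all features (0.564%), with a log2 difference of 3.15 (95% interval 0.84 to 5.46, adjusted p = 1). Next by p came ACTB, the beta-actin gene, with 2 and 4 peaks against 0 and 0 in DMSO, and TRIO, a guanine nucleotide exchange factor, with 2 and 7 against 0 and 1, at log2 differences of 1.94 (−0.14 to 4.01) and 1.9 (−0.39 to 4.19). Of features with a negative difference, RGS20, a regulator of G-protein signalling, had the smallest p, at −1.63 (−3.85 to 0.59).

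Between the stereoisomers limma called no deep intronic feature (0% of all features), and 4 had an unadjusted p under 0.05 among 5 of all features (0.94%). The log2 difference of SKBG-1(R) minus SKBG-1(S) was −3.79 for AFF3 (95% interval −5.96 to −1.62, limma adjusted p = 0.712) and −2.31 for PPP3CA (−4.52 to −0.09), where 0.564% of all features were negative at that p. It was 1.93 for SLC7A1, a cationic amino acid transporter (0.01 to 3.86), where 0.376% of all features were positive, with 6 and 6 peaks with SKBG-1(R) against 0 and 0 with SKBG-1(S). These intervals span several log2 units, so a feature that missed the threshold is not shown to respond alike to both compounds. SKBG-1(R) and SKBG-1(S) share the DMSO lists as their control, and the differences above are given side by side for that reason.

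Genes seen in every list of one group and in none of another were counted without a test and without adjustment for list length. Both SKBG-1(R) lists and neither DMSO list held deep intronic peaks for 38 genes (4.20% of the 905, against 4.77% of the 2893 combinations of gene and class), while the reverse held for 10 genes (1.10%, against 0.588%). With SKBG-1(S) the counts were 13 and 2 (1.44% against 1.56%, and 0.221% against 0.277%). The genes present in both DMSO lists and absent with SKBG-1(R) included AFF3, SRRM4, PDE4D, XKR6, SGCZ, LMO7, ELL2, NLGN1 and PHF21A. PDE4D, a cAMP phosphodiesterase, had 2 and 1 DMSO peaks, NLGN1, a synaptic adhesion protein, 1 and 1, and ELL2, an elongation factor, 1 and 1.

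Regions found in both lists of one group and in no other list numbered 62 for SKBG-1(R), 6 for SKBG-1(S) and 3 for DMSO, of 10586 deep intronic regions. Over merged regions of every class such regions numbered 140, 18 and 3 of 16419 (0.853, 0.11 and 0.0183%). The counts were not adjusted for list length. The SKBG-1(R) lists held 770 and 9616 deep intronic peaks, against 244 and 2207 with DMSO. CCND1 held 16 of the 62 SKBG-1(R) regions, and ANKRD11 and PMEPA1, an androgen-responsive gene, 5 each. The one with the highest enrichment in its weaker list was in the first intron of ATXN2, an RNA-binding protein, on chromosome 12 from 111598196 to 111598278, with log2 enrichments of 4.83 and 4.85, and the next 4 were all in CCND1. In GENCODE 29 the ATXN2 region also lies within an exon of a retained-intron transcript of that gene. Among the SKBG-1(S) regions that of CUX1 led, with 3.70 and 3.89. The DMSO regions lay in DOCK1, an activator of Rac (4.00 and 4.45), in PPP3CA (3.57 and 4.26) and in AFF3 (3.57 and 3.06). A further 18 deep intronic regions were in all 4 compound lists and neither DMSO list, 4 of them in UNKL and 2 in TRIO. Over merged regions of every class such regions numbered 49 of 16419 (0.298%).

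By gene list, chromatin regulators carried the most deep intronic peaks. Of 68 listed, 29 had at least 1 and 8 had one in every list, and together they held 12.7 and 16.9% of the deep intronic peaks with SKBG-1(R), 9.72 and 15.4% with SKBG-1(S), and 8.20 and 16.6% with DMSO. Their leading members were GSE1, ANKRD11, ZFPM1, a cofactor of GATA factors, and BAHCC1. Of 21 tested in SKBG-1(R) against DMSO, 0 passed adjustment and 2 had an unadjusted p under 0.05, both positive (ANKRD11 and TCF20), where 1.5% of all features were, and the median log2 difference was −0.11 against 0.21 over all features. DNA-binding transcription factors followed, with 24 of 68 bound and SKI, NFIX, CUX1 and NFIC in front. Of the 18 tested, 1, AFF3, was lower, and their median was −0.16.

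Neuronal adhesion and synaptic genes had 10 of 59 members with a deep intronic peak. They made up 0.78 and 1.40% of the deep intronic peaks with SKBG-1(R), 4.10 and 2.95% with SKBG-1(S), and 6.15 and 4.21% with DMSO, and the groups did not overlap. Of the 6 tested against DMSO with SKBG-1(R), 0 passed adjustment and 3 had an unadjusted p under 0.05, all negative, where 1.13% of all features were, and the median log2 difference was −2.06 against 0.21 over all features. These were PPP3CA, SGCZ and PTPRN2, a protein of secretory vesicles with 0 and 61 peaks with SKBG-1(R), 5 and 16 with SKBG-1(S), and 4 and 36 with DMSO. The list was written with earlier results of these data known. Its shares, its 3 members with a small p and its median are therefore descriptions. PTPRN2 and MAD1L1 held 122 and 95 of its 328 peaks. MAD1L1 encodes a mitotic checkpoint protein, so the name of the list does not describe all its members. Its peaks are counted in the shares and the median above.

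Prostate and hormone response genes had 11 of 34 members bound and 7 tested, with a median of 0.18. PMEPA1 led them with 12 and 205 peaks with SKBG-1(R), 1 and 19 with SKBG-1(S), and 2 and 47 with DMSO, ahead of SPDEF and ZFHX3. Electrophile and amino acid stress genes had 7 of 39 bound and 3 tested, with log2 differences of −0.53 for SLC7A5, which held 387 of the list's 444 peaks, 1.93 for SLC7A1 and 1.84, the median, for CARS. CARS, a cysteine tRNA ligase, had 2 and 20 peaks with SKBG-1(R), 1 and 5 with SKBG-1(S), and 0 and 0 with DMSO. Cytoskeleton and junction genes had 15 of 44 bound and 7 tested, with a median of 0.94, and small GTPase regulators 16 of 60 and 7 tested, with a median of 0.32. Splicing factors had 6 of 47 bound, with PTBP1 and SRRM4 tested, and cell cycle regulators 4 of 34, with CCND1 and E2F3 tested. In none of these lists did a member pass the adjusted threshold in any comparison.

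Paraspeckle proteins, among which NONO belongs, had 5 of 34 members with a deep intronic peak, led by DAZAP1 with 5 and 50 peaks with SKBG-1(R), 7 and 16 with SKBG-1(S), and 0 and 15 with DMSO. Ribosomal protein genes had 0 of 16. Of 8 markers of the prostate epithelial line only TMPRSS2 held a deep intronic peak, 1 in DMSO replicate 2, and of 11 markers of other cell types 0 did. A peak needs intronic RNA and contact with NONO, so these lists do not check the identity of the cells.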

How the data were processed

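NONO eCLIP libraries of 22Rv1 cells (immunoprecipitation and input for 2 replicates of 3 groups, 12 libraries) were grouped by title. Per the labels' protocols, libraries were processed with the seCLIP pipeline. The submitters' processing notes name STAR 2.4.0i and cutadapt 1.9, and no source used here names the peak caller. The authors deposited 1 list per replicate, with a −log10 p and a log2 enrichment over input for each peak, both at least 3. These values were used to describe, rank or filter peaks. Their medians were also tested between deep and proximal introns within lists, and no test compared them between groups. The notes name more than 1 build. The coordinates are GRCh38, since 99.6% of annotated transcripts had the same start and end in GENCODE 29.

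Peaks per gene and class were tested with limma 3.58.1 in R 4.3.3 (trended variance, all 6 lists in 1 fit) at a threshold of 0.05. The code was first checked on simulated lists with more peaks than the real ones, large changes and only counting error between replicates. That check does not show how the test performs on lists that vary as these do. Single values had exact permutation tests. Peaks overlapped when sharing 1 nt on a strand, and 167 peaks with joint gene names were kept. Other calculations used Python 3.11.15. GC content and repeats of all regions were planned and not run for want of a genome sequence. Depth is unknown, and list length sets the precision.

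Named features are the 10 genes with the highest mean share, the 5 higher and 5 lower per comparison with the smallest p among those moving alike in both same-numbered pairs, the 4 leading members per gene list and the leading regions, of which the text gives a part. The genes present with DMSO and absent with SKBG-1(R) were named after their values were seen, and 1 named feature is not reported here. The members and lists were chosen with earlier results of these data known, so counts, shares and medians by list are descriptions.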

Additional observations from a re-analysis of the deposited data

How the results depend on the processing

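Peak number and class share followed the lists included. With lists held to the shortest length, the log2 number differed by −0.055 (SKBG-1(R) minus DMSO) and −0.20 (SKBG-1(S) minus DMSO), and the share by −1.20 points (SKBG-1(R) minus DMSO). Leaving out each list in turn moved the log2 number over 0.07 to 3.71 (SKBG-1(R) minus DMSO), −1.18 to 1.99 (SKBG-1(S) minus DMSO) and −0.33 to 3.31 (SKBG-1(R) minus SKBG-1(S)), and the share over −8.81 to 16.5, −15.6 to 7.92 and −4.96 to 20.4 points in the same order. Deep minus proximal log2 enrichment was −0.0715 at a log2 enrichment of at least 4, 0.0829 at a −log10 p of at least 5 (past the threshold), −0.0243 with peaks within 50 nt joined, 0.10 at the shortest length, and −0.00693 to 0.0151 with a list left out. The −log10 p difference was −0.852 at a −log10 p of at least 5 and −0.943 with peaks joined, both past the threshold, and 0.0683 at the shortest length. Width differed by −9.42 nt with peaks joined (past the threshold) and by 0.0833 nt against all other peaks, and distance to the gene start by 9165 nt at a −log10 p of at least 5 and 13625 nt with peaks joined. Overlap of the shorter with the longer list was 30.9% (SKBG-1(R)), 48.5% (SKBG-1(S)) and 25.4% (DMSO) at the shortest length, and 33.1, 22.1 and 9.23% at a log2 enrichment of at least 4. The cause was not tested. GC content and repeat share were not run.

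SKBG-1(R) against DMSO had 0 deep intronic calls by limma at a log2 enrichment of at least 4, at a −log10 p of at least 5, at the shortest length, with peaks joined, with no filter, with TMM or no scaling, with 4 lists and with whole genes. Leaving out a list gave 0 to 12 calls in that comparison and 0 to 12 in SKBG-1(R) against SKBG-1(S). The 12 came without SKBG-1(R) replicate 1, had no peak outside SKBG-1(R), and did not include AFF3. In 11 of them the peaks were in SKBG-1(R) replicate 2 alone, the lone list of its group there, which is assumed to vary like the other groups. With the replicate number as a block (replicate block), 1 deep intronic feature was called in SKBG-1(R) against DMSO and 0 in the other comparisons. Same-numbered lists deviated together (r = 0.489, 0.537 and 0.425 over 532 features), but the labels do not say what a number shares. Replicate 2 was also the longer list in every group, and how far list length enters these r was not tested.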
